A study of Mus musculus with 20 samples.

Results

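A window of mouse chromosome 4 named after the copper transporter genes Slc31a1 and Slc31a2 held 14 of the 11222 enhancers in the deposited count table. All enhancers with a midpoint between 62 and 63 Mb (mm39) were taken, and they are called E1 to E14 in their order along the chromosome. That the 2 genes lie in the window on mm39 was not checked, since the gene positions at hand are of GRCm38. Although the rule is a position, the window was chosen by its measured levels, namely the higher tag counts with CpG than in unstimulated cells, so the values with CpG alone, both stimuli against CpG alone, and every comparison with the unstimulated libraries are described here and support nothing. Tests are given for both stimuli against IFN-γ alone and between times. The first of these again sets CpG against its absence, so its tests are not independent of that choice.

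The assay was nAnT-iCAGE, which counts the capped 5' ends of RNA, and so transcription starts, without amplification. The cells were macrophages of C57BL/6 mice, grown from marrow with M-CSF. The groups were IFN-γ together with CpG DNA, CpG DNA alone and IFN-γ alone, each at 3, 9 and 15 h, and unstimulated cells at 0 h. Each of the 10 groups held 2 libraries, described as biological replicates, 20 in all. The only unstimulated libraries are from 0 h, so the stimulus and the time in culture cannot be told apart in comparisons with them. Treatment with IL-4 and IL-10 to polarize macrophages is part of the growth text, which leaves unsaid whether it was applied to these cells. Libraries held 12776280 to 13855472 tags, of which 12879 to 29794 fell in enhancers (0.0991% to 0.22%), so each level given here rests on few tags. RPM is tags in 1000000 tags of the whole library. The macrophage identity of the cells could not be checked against marker genes here, because the files name no gene.

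Slc31a1 encodes CTR1, the high-affinity importer that brings copper into cells. Slc31a2 encodes CTR2, a related protein found mainly on endosomes and lysosomes that takes part in copper storage and release. Macrophages are known to move copper into phagosomes, where it is toxic to bacteria. CpG DNA is sensed in endosomes by TLR9, which signals to NF-kB and AP-1, and IFN-γ is a cytokine that activates macrophages. Active enhancers are transcribed in both directions into short capped RNAs, so that CAGE tags at an enhancer are a reading of its activity.

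In RefSeq's gene order on the older build GRCm38, the protein-coding genes from Slc31a2 to Slc31a1 are Slc31a2, Fkbp15 and Slc31a1, with Zfp37 before them and Cdc26 and Prpf4 after. The enhancers are on mm39, so they were not placed among these genes, and no target gene is assigned. The promoters of the 2 transporter genes, taken as 300 bases at the gene start, mostly before it, from RefSeq (GRCm38.p6), are shown because they name the locus. Their activity was not measured in these files. The Slc31a1 window is chr4:62360451-62360750 on the plus strand (64% GC) and the Slc31a2 window is chr4:62286179-62286478 on the plus strand (58% GC). Capitals mark matches, on either strand, to the NF-kB letters GGGNNNNNCC and the PU.1 letters GAGGAA in Slc31a1, and to the metal response element letters TGCNCNC in Slc31a2.
Slc31a1: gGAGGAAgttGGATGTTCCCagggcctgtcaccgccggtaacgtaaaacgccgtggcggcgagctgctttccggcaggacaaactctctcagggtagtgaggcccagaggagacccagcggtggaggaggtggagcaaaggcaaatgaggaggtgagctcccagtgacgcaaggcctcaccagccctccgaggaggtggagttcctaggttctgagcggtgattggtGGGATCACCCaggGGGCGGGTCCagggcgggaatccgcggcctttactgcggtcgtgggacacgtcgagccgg
Slc31a2: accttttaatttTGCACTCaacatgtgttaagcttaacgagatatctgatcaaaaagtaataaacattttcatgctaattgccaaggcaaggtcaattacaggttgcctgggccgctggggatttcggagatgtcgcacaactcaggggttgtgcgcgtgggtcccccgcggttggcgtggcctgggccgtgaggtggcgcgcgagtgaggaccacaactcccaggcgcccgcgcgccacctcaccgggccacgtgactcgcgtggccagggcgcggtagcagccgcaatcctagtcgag
The Slc31a1 window held 3 NF-kB matches, which 50.8% of 32851 mouse promoters of this length also hold at least once, and 1 PU.1 match (28.3% of promoters). The Slc31a2 window held 1 metal response element match (51% of promoters). Neither window held the letters of AP-1 (TGANTCA, 7.81% of promoters), ISRE (GAAANNGAAA, 3.44%), GAS (TTCNNNGAA, 8.3%) or C/EBP (TTGCNNAA, 10.8%). These matches describe letters only.

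Of the 14 enhancers, 9 lay in a group of 22469 bp, and the other 5 were spread beyond it. The first 3 were E1 at chr4:62183758-62184020, E2 at chr4:62184465-62184867 and E3 at chr4:62185308-62185782. E4 at chr4:62189774-62189916, E5 at chr4:62193160-62193349 and E6 at chr4:62199652-62199926 followed. E7 at chr4:62200596-62201074 ended 34 bp before E8 at chr4:62201108-62201550, and E9 at chr4:62205680-62206227 closed the group. After a gap of 60139 bp came E10 at chr4:62266366-62266541, E11 at chr4:62267756-62267989, E12 at chr4:62276107-62276265 and E13 at chr4:62326123-62326288, and 255915 bp further on E14 at chr4:62582203-62582596. E1 to E9 held 780 of the window's 927 tags (84.1%). E3 held the most (173 tags, 18.7%), then E9 (153 tags, 16.5%), E7 (120 tags, 12.9%), E6 (110 tags, 11.9%) and E1 (108 tags, 11.7%). The enhancers were 142 to 547 bp long, with a median of 268 bp against 288 bp over all enhancers, and a median of 43 tags over the 20 libraries against 21 over all. Of 1559 windows of 1 Mb that hold an enhancer, 258 (16.5%) held 14 or more, so the window's number of enhancers is not rare.

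At the lower edge, the nearest enhancer outside was chr4:59815538-59815693 with 17 tags, 7 with both stimuli, 2 with CpG, 8 with IFN-γ and 0 unstimulated. The first inside was E1 with 51 tags with both stimuli, 35 with CpG, 22 with IFN-γ and 0 unstimulated. At the upper edge the last inside was E14 with 10 tags, 5 with both stimuli, 0 with CpG, 4 with IFN-γ and 1 unstimulated. The next outside was chr4:63304150-63304248 with 6 tags, 3 with both stimuli, 0 with CpG, 3 with IFN-γ and 0 unstimulated.

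The summed level of the 14 enhancers was higher in every stimulated group than in unstimulated cells, and highest with both stimuli. With both stimuli the libraries stood at 3.75 and 5.03 RPM at 3 h, 5.6 and 6.32 RPM at 9 h and 5.97 and 8.89 RPM at 15 h. With CpG alone they stood at 1.42 and 2.21 RPM at 3 h, 3.43 and 3.19 RPM at 9 h and 3.61 and 4.38 RPM at 15 h. With IFN-γ alone they stood at 2.34 and 2.92 RPM at 3 h, 1.95 and 2.54 RPM at 9 h and 2.12 and 2.47 RPM at 15 h, and the unstimulated libraries at 0.723 and 0.968 RPM. No stimulated library overlapped the unstimulated ones. The sum with CpG alone was thus higher at 15 h than at 3 h, 2.2 times, with no overlap of libraries, while the sum with IFN-γ alone was 0.871 times as high at 15 h as at 3 h, with overlapping libraries.

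As a description only, the name CpG-induced leaves out that the sum was also higher with IFN-γ alone than in unstimulated cells. At 3 h the sum was lower with CpG than with IFN-γ (1.82 ± 0.562 against 2.63 ± 0.411 RPM, SD, n = 2 each, ratio 0.69), and higher with CpG at 9 h (ratio 1.47) and 15 h (ratio 1.74). The mean with both stimuli was 4.39 ± 0.899, 5.96 ± 0.505 and 7.43 ± 2.06 RPM at 3, 9 and 15 h (SD, n = 2). It was 2.42, 1.8 and 1.86 times that with CpG alone and 5.19, 7.05 and 8.79 times that of unstimulated cells (0.845 ± 0.173 RPM, SD, n = 2). Against unstimulated cells the ratio was 2.15, 3.92 and 4.73 with CpG alone, and 3.11, 2.66 and 2.71 with IFN-γ alone. All these ratios share the 2 unstimulated libraries, which held 23 tags in the window together.

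Over IFN-γ alone, both stimuli had sums 1.67, 2.65 and 3.24 times as high at 3, 9 and 15 h, with no overlap of libraries. The share of all enhancer tags that fell in the window was also higher at 9 and 15 h, but not at 3 h. It was 0.231% ± 0.00362, 0.439% ± 0.0526 and 0.396% ± 0.0433 with both stimuli at 3, 9 and 15 h, against 0.237% ± 0.0827, 0.147% ± 0.00743 and 0.178% ± 0.0108 with IFN-γ (SD, n = 2 each), so that the ratios of shares were 0.975, 2.99 and 2.23. The direction at 3 h thus depends on whether levels are set against whole libraries or against enhancer tags.

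**Figure D1:**
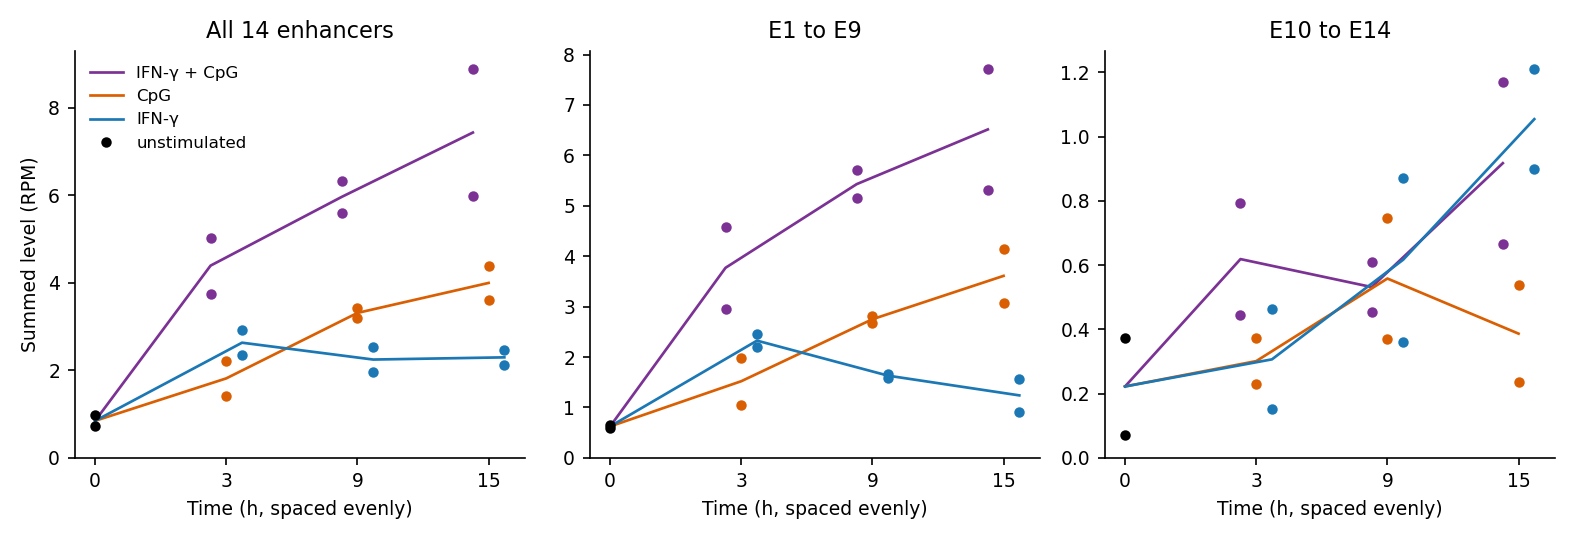
Summed level in RPM (y axis) at 0, 3, 9 and 15 h (x axis, spaced evenly) of all 14 enhancers, of E1 to E9 and of E10 to E14. Points are libraries, 2 per group, and lines join group means; the purple points with both stimuli lie highest for all 14 enhancers, and in the right panel IFN-γ alone at 15 h is as high as both stimuli.

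The group E1 to E9 and the scattered E10 to E14 had different courses. For E1 to E9 the sum was 3.77 ± 1.15, 5.43 ± 0.396 and 6.51 ± 1.7 RPM with both stimuli at 3, 9 and 15 h, 1.52 ± 0.664, 2.75 ± 0.0986 and 3.61 ± 0.759 RPM with CpG, and 2.33 ± 0.191, 1.63 ± 0.0588 and 1.24 ± 0.469 RPM with IFN-γ, against 0.623 ± 0.0392 RPM unstimulated (SD, n = 2 each). With IFN-γ alone the level at 15 h was 0.533 times that at 3 h, with no overlap. For E10 to E14 it was 0.619 ± 0.248, 0.531 ± 0.109 and 0.917 ± 0.358 RPM with both stimuli, 0.301 ± 0.102, 0.558 ± 0.264 and 0.386 ± 0.214 RPM with CpG, and 0.306 ± 0.22, 0.616 ± 0.361 and 1.05 ± 0.221 RPM with IFN-γ, against 0.222 ± 0.212 RPM unstimulated (SD, n = 2 each). Here IFN-γ alone at 15 h was 3.44 times its 3 h level, and CpG at 15 h was 0.367 times IFN-γ at 15 h, both with no overlap. The split at the gap between E9 and E10 was made after the values were seen, and these differences have no test.

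**Figure D2:**
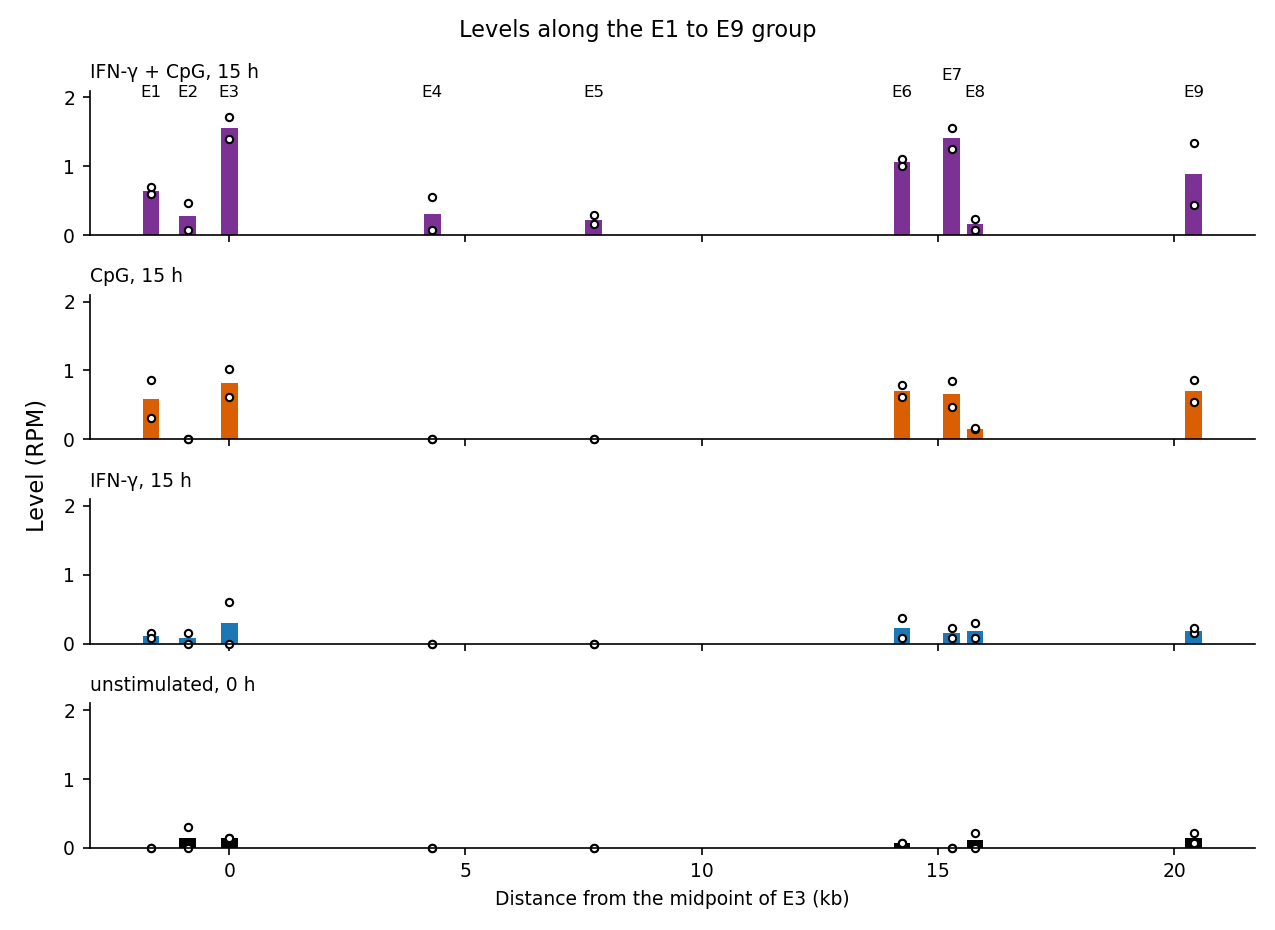
Level in RPM (y axis) of E1 to E9 by distance from the midpoint of E3 in kb (x axis), at 15 h with both stimuli, CpG or IFN-γ, and at 0 h unstimulated. Bars are group means from 0 and circles the 2 libraries. The highest bars with both stimuli are E3 and E7, while E2, E4, E5 and E8 stay low beside them.

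CpG alone was accompanied by tags at E1, E3, E6, E7 and E9, which were few or absent in unstimulated cells. At E7 the CpG libraries held 0 and 2 tags at 3 h, 7 and 3 at 9 h and 11 and 6 at 15 h, against 0 and 0 in the unstimulated libraries. At 15 h this is at least 5.99-fold higher, taking 3 tags over the unstimulated group as a floor and the CpG tags as counted. At E1 the CpG libraries held 3 and 5, 6 and 6, and 4 and 11 tags at 3, 9 and 15 h, against 0 and 0 unstimulated, at least 5.29-fold higher at 15 h. Neither enhancer was detected in unstimulated cells, where a count of 0 allows up to 0.11 RPM.

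At E6 the CpG libraries held 4 and 2, 4 and 6, and 8 and 10 tags at 3, 9 and 15 h, against 1 and 1 unstimulated, a ratio of 9.51 at 15 h with a counting interval of 2.28 to 84.6. E3 held 3 and 10, 8 and 15, and 8 and 13 tags with CpG, against 2 and 2 unstimulated, a ratio of 5.55 at 15 h. E9 held 4 and 5, 7 and 8, and 7 and 11 tags with CpG, against 3 and 1 unstimulated, a ratio of 4.76 at 15 h. At 15 h the CpG libraries lay above the unstimulated ones at all of these. E13 held 3 and 3, 5 and 4, and 6 and 3 tags with CpG, 24 in all against 20 with both stimuli, and 1 and 3 unstimulated, with ratios of 1.54, 2.28 and 2.38 at 3, 9 and 15 h whose counting intervals all include 1. Its CpG libraries lay above the unstimulated ones in RPM at each time, at 3 h by a narrow margin (0.224 and 0.229 against 0.0723 and 0.223 RPM). E8 held 0 and 1, 3 and 0, and 2 and 2 tags with CpG, against 3 and 0 unstimulated, with overlap at 15 h. Of the 14, 7 had enough tags for the edgeR fit of the whole table (E1, E3, E6, E7, E8, E9 and E13). In it 0, 3 (E1, E3 and E7) and 5 of these 7 passed an adjusted p under 0.05 as higher at 3, 9 and 15 h, while 1.18%, 4.48% and 4.55% of all tested enhancers did; since this contrast chose the window, nothing is read from these counts. At 15 h both stimuli over CpG alone gave ratios of 2.13 at E7, 1.91 at E3 and 1.52 at E6 with no overlap of libraries, and of 1.25 at E9 and 1.11 at E1 with overlap. The counting intervals, which leave out the spread between libraries, included 1 at E6 (0.812 to 2.92), E9 and E1, but not at E7 and E3. In the edgeR fit, scaled to enhancer tags, the log2 differences were 0.90 ± 0.50 at E7, 0.75 ± 0.45 at E3 and 0.43 ± 0.52 at E6 (SE). Their adjusted p-values were 0.297, 0.347 and 0.661 (edgeR), so none of them passed, and this contrast is described only.

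**Figure D3:**
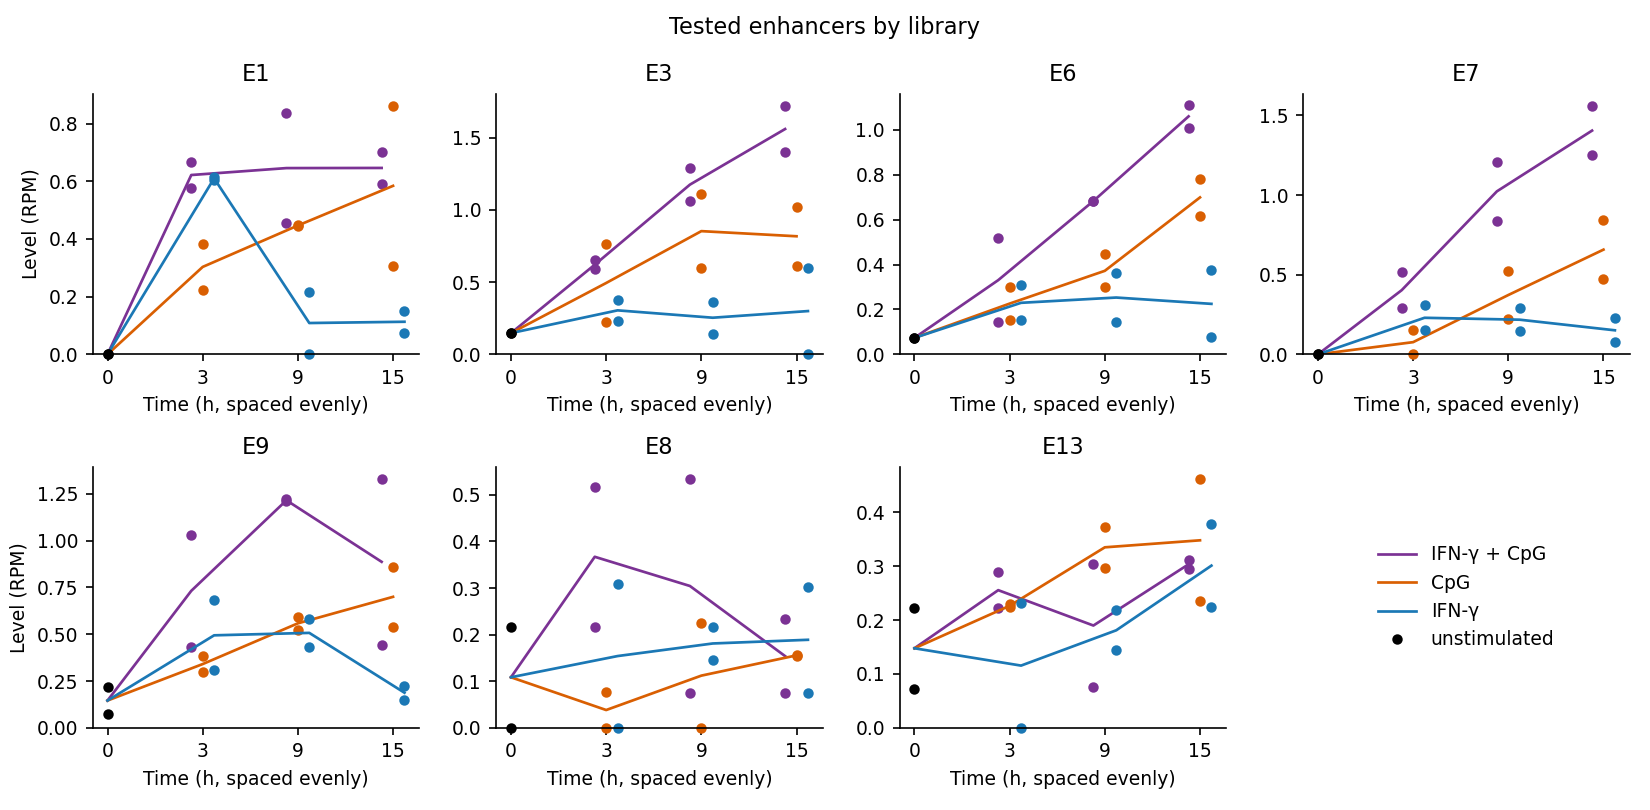
Level in RPM (y axis) at 0, 3, 9 and 15 h (x axis, spaced evenly) of the 7 enhancers that passed the filter on low counts. Points are libraries, 2 per group, and lines join group means; with both stimuli E3, E6 and E7 stand highest at 15 h, while E8 and E13 show no such separation.

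CpG on top of IFN-γ was tested against IFN-γ alone, and E7 and E3 rose at 9 h and 15 h and E1 at 9 h. The 7 enhancers tested passed the filter on low counts through the groups in which they were high, so counts and medians over them describe them without adding support. Their adjusted p-values also follow the choice of the window by its CpG response, and E7 held at most 4 tags in any library with IFN-γ alone. At E7 the libraries with both stimuli held 4 and 7 tags at 3 h, 16 and 11 at 9 h and 17 and 20 at 15 h, against 2 and 4, 2 and 4, and 3 and 1 with IFN-γ. In tags, the groups met at 3 h and were apart at 9 and 15 h. The log2 change was 2.34 ± 0.65 at 9 h (SE, adjusted p = 0.0135, edgeR quasi-likelihood test with Benjamini-Hochberg adjustment) and 2.74 ± 0.69 at 15 h (SE, adjusted p = 0.003, same test).

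E3, the enhancer with the most tags, held 9 and 8, 14 and 17, and 19 and 22 tags with both stimuli at 3, 9 and 15 h, against 5 and 3, 2 and 5, and 0 and 8 with IFN-γ. Its groups did not overlap at any time, and its IFN-γ libraries were far apart at 15 h. It rose by a log2 change of 2.33 ± 0.59 at 9 h (SE, adjusted p = 0.00571, edgeR) and 1.93 ± 0.55 at 15 h (SE, adjusted p = 0.0136, edgeR). E1 held 8 and 9, 6 and 11, and 8 and 9 tags with both stimuli, against 8 and 8, 3 and 0, and 2 and 1 with IFN-γ. It was level between the groups at 3 h. It rose by 2.62 ± 0.83 at 9 h (SE, adjusted p = 0.0329, edgeR), while 2.02 ± 0.85 at 15 h did not pass (SE, adjusted p = 0.104, edgeR). The 3 IFN-γ tags at either time give ratios of 5.94 at 9 h (counting interval 1.72 to 31.6) and 5.71 at 15 h (1.65 to 30.4).

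The other 4 tested enhancers did not pass at any time in the main fit. E6 held 2 and 7, 9 and 9, and 15 and 13 tags with both stimuli, against 2 and 4, 5 and 2, and 1 and 5 with IFN-γ; its log2 differences of 1.54 ± 0.69 at 9 h and 1.79 ± 0.66 at 15 h (SE) had adjusted p = 0.162 and 0.0628 in edgeR. E9 held 6 and 14, 16 and 16, and 6 and 17 tags with both stimuli, against 9 and 4, 6 and 8, and 2 and 3 with IFN-γ, with 1.40 ± 0.51 at 9 h (SE, adjusted p = 0.0798, edgeR) and 1.75 ± 0.69 at 15 h (SE, adjusted p = 0.0827, edgeR). Both lay above IFN-γ in each library at 9 and 15 h, with smaller log2 differences than those of the enhancers that passed. E8, right beside E7, held 3 and 7, 1 and 7, and 1 and 3 tags with both stimuli, against 0 and 4, 3 and 2, and 4 and 1 with IFN-γ, and its log2 difference at 15 h was -0.69 ± 1.12 (SE, adjusted p = 0.716, edgeR). E13 held 4 and 3, 1 and 4, and 4 and 4 tags with both stimuli, against 0 and 3, 2 and 3, and 5 and 3 with IFN-γ, with -0.39 ± 0.85 at 15 h (SE, adjusted p = 0.805, edgeR). E8 and E13 overlapped between the groups at 15 h.

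Of the 7 tested, 0 were called higher at 3 h (0 in either direction, 0 also at an unadjusted p under 0.05, and 0 by DESeq2 and by limma), 3 higher at 9 h and 2 higher at 15 h. Of all 2792 tested enhancers 1.04%, 4.19% and 5.16% were called higher. The median log2 difference of the 7 was 0.32, 1.54 and 1.79 at 3, 9 and 15 h, against 0.11, 0.00 and 0.09 over all tested enhancers. Scaling to whole-library totals moved the medians over all enhancers to 0.57, -0.15 and 0.49. That scaling also moved members, such as E7 to 2.19 at 9 h and 3.14 at 15 h, so its medians are not comparable with those of the 7. Leaving out 1 library, which also leaves fewer to test, ended several calls, with log2 changes that moved by differing amounts. E3 at 9 h stood at a log2 of 2.02 to 2.89 without replicate 1 of IFN-γ, replicate 2 of IFN-γ or replicate 2 of both stimuli (adjusted p = 0.0822, 0.0504 and 0.0901, edgeR). E7 at 9 h stood at 2.13 or 2.68 without replicate 1 or 2 of IFN-γ and 2.13 without replicate 1 of both stimuli (adjusted p = 0.112, 0.108 and 0.15, edgeR). E3 at 15 h stood at 1.91 or 1.97 without replicate 1 or 2 of both stimuli, and E7 at 15 h fell from 2.74 to 2.15 without replicate 2 of IFN-γ. E1 at 9 h fell from 2.62 to 1.47 without replicate 2 of IFN-γ and to 2.03 without replicate 2 of both stimuli. E3 at 15 h fell from 1.93 to 0.97 without replicate 1 of IFN-γ. Without replicate 1 at 9 h for E1, or replicate 2 at 15 h for E3, no IFN-γ tag was left and the size of the change is open-ended. DESeq2 kept E7 at 15 h but not E3 (adjusted p = 0.0962), and none of the 3 at 9 h (adjusted p 0.0505 to 0.0964). EdgeR on whole-library totals called 5 higher at 15 h, while it called 235 of all 2792 tested enhancers higher, against 144 in the main fit. It lost E1 at 9 h (log2 2.47, adjusted p = 0.0638, edgeR).

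**Figure D4:**
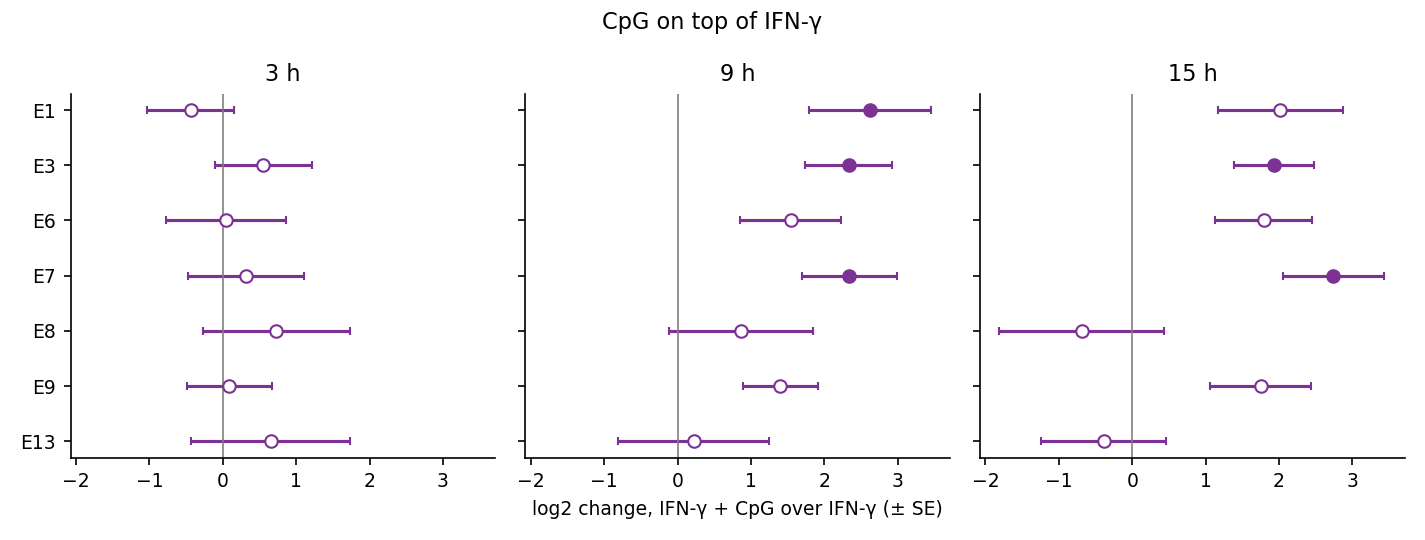
Log2 change (x axis, ± SE) of both stimuli over IFN-γ alone at 3, 9 and 15 h for the 7 tested enhancers (y axis); filled points passed edgeR's adjusted p under 0.05. E1, E3 and E7 are filled at 9 h, E3 and E7 at 15 h and none at 3 h, and E8 and E13 lie on the other side of 0 at 15 h.

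Whether the added effect of CpG differed between times was tested as an interaction, and no member passed. E1 came nearest, with both stimuli over IFN-γ larger at 9 h than at 3 h by a log2 of 3.06 ± 1.03 (SE, adjusted p = 0.217, edgeR with Benjamini-Hochberg adjustment) and at 15 h than at 3 h by 2.46 ± 1.05 (SE, adjusted p = 0.277, edgeR). E7 at 15 h against 3 h stood at 2.42 ± 1.14 (SE, adjusted p = 0.369, edgeR). Unadjusted p was under 0.05 in 1 member for 9 h against 3 h and in 2 for 15 h against 3 h, and no other tool was run on this difference. Over all enhancers 0.322% and 0.107% were called. The absence of calls at 3 h beside calls later is therefore not shown to be a difference between times.

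With IFN-γ alone, E1 and E7 had tags at every time, against none in unstimulated cells. At E1 the IFN-γ libraries had 8 and 8 tags at 3 h, 3 and 0 at 9 h and 2 and 1 at 15 h, against 0 and 0 unstimulated, at least 5.54-fold higher at 3 h. E7 held 2 and 4, 2 and 4, and 3 and 1 tags with IFN-γ, against 0 and 0 unstimulated, at least 2.08-fold higher at 3 h and 1.97-fold at 9 h. The tags of E1 were thus mostly early with IFN-γ, and those of E7 spread over the times. At E9 the IFN-γ libraries had 9 and 4 tags at 3 h, 6 and 8 at 9 h and 2 and 3 at 15 h, against 3 and 1 unstimulated. The libraries were apart at 3 and 9 h and overlapped at 15 h.

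In the edgeR fit 2 members (E1 and E7), 1 member (E7) and 0 members passed an adjusted p under 0.05 as higher with IFN-γ at 3, 9 and 15 h, beside 7.59%, 12.9% and 10.1% of all tested enhancers. At 15 h, 2 had an unadjusted p under 0.05, and DESeq2 and limma called 0. The call of E7 was lost at 3 h without either unstimulated replicate or replicate 2 of IFN-γ, and at 9 h without any 1 of the 4 libraries. The low counts of the unstimulated libraries were among the values that chose the window, and the same libraries stand behind the CpG values above, so nothing is read from these counts.

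Between 3 and 15 h with both stimuli, E7 rose, with 17 and 20 tags at 15 h against 4 and 7 at 3 h (log2 change 1.71 ± 0.55, SE, adjusted p = 0.0266, edgeR with Benjamini-Hochberg adjustment). It was the 1 member called, beside 4.48% of all tested enhancers called higher. E3 and E6 stood at 1.24 ± 0.47 and 1.61 ± 0.60 without passing (SE, adjusted p = 0.0672 and 0.066, edgeR). The change of E7 kept its size whichever of the 4 libraries was left out, but none of these fits passed. It was 1.64 and 2.01 without replicates 1 and 2 at 3 h (adjusted p = 0.133 and 0.11, edgeR), and 1.82 and 1.87 without replicates 1 and 2 at 15 h (adjusted p = 0.0681 and 0.0879, edgeR). With IFN-γ alone, 0 members were called between 15 and 3 h, beside 1.04% of all in either direction (0 by DESeq2 and by limma, 1 at an unadjusted p under 0.05). That member was E1, with 2 and 1 tags at 15 h against 8 and 8 at 3 h (ratio 0.185, counting interval 0.0345 to 0.646) and a log2 difference of -2.48 ± 0.84 (SE, adjusted p = 0.14, edgeR).

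The 7 enhancers that were too low to test held 10 to 39 tags each over the 20 libraries. Among them E5 held 16 tags in the 6 libraries with both stimuli (2 to 4 in each), 0 in the 6 with CpG alone, 5 in the 6 with IFN-γ alone and 0 in the 2 unstimulated ones. A count of 0 allows a level of up to 0.0379 RPM over the CpG libraries, against 0.2 RPM with both stimuli. Tags at E5 were thus seen only where IFN-γ was given. With IFN-γ alone 4 of the 5 tags came at 3 h and 0 at 15 h. The unstimulated count of 0 allows up to 0.11 RPM, above the 0.0622 RPM with IFN-γ alone, so those 2 are not told apart. E4 held 11 tags with both stimuli, 7 of them in replicate 2 at 15 h, 0 with CpG, 1 with IFN-γ and 0 unstimulated.

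E2 held 5 and 5 tags with both stimuli at 3 h, 0 and 1 with CpG, 2 and 2 with IFN-γ, and 0 and 4 unstimulated. Over all times E2 held 23 tags with both stimuli, 2 with CpG, 7 with IFN-γ and 4 unstimulated, so that it did not follow its neighbours E1 and E3 with CpG alone. E10 held 3 and 3 tags with both stimuli at 3 h, 0 and 0 with CpG, 0 and 2 with IFN-γ and 0 and 0 unstimulated. Its totals were 9 tags with both stimuli, 1 with CpG, 9 with IFN-γ and 0 unstimulated. E12 held 4 and 6 tags with both stimuli at 15 h, 1 and 0 with CpG, 5 and 4 with IFN-γ (at least 3.08-fold over unstimulated cells), and 0 and 0 unstimulated. At 9 h it held 1 and 4 tags with both stimuli, 4 and 0 with CpG and 2 and 5 with IFN-γ, and at 3 h 2 and 0 with both stimuli, 1 and 0 with CpG and 0 and 0 with IFN-γ, so most of its tags came at 9 and 15 h. E11 and E14 held at most 3 tags in a library.

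Across the 20 libraries, E1, E3, E6, E7 and E9 varied together, with Pearson's r of 0.62 to 0.83 (median 0.725) over their 10 pairs on log2(RPM + 0.5). E8 and E13 went with these 5 at r of -0.05 to 0.34 (median 0.245), although E8 lies between E7 and E9. Over all 91 pairs of the 14, r was -0.33 to 0.83 (median 0.28). The 5 were picked after their values were seen, the libraries of a group share their stimulus, and low counts weaken r, so these values are a description.

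Outside the window, the 5 enhancers of the 2785 compared whose levels went most like the sum of the 14 over the 20 libraries lay on 3 other chromosomes. They were chr2:117129364-117129727 and chr17:43868045-43868374 (both r = 0.86), chr13:5839351-5839665 and chr13:33186931-33187283 (both r = 0.84) and chr13:42411979-42412427 (r = 0.83). The first stood at 1.17, 1.1 and 1.9 RPM with both stimuli at 3, 9 and 15 h, 0.455, 0.93 and 0.582 RPM with CpG and 0.228, 0.471 and 0.113 RPM with IFN-γ, against 0 RPM unstimulated. The levels of chr16:31109664-31110104 (r = -0.90) and chr8:84928192-84928495 (r = -0.88) went most against the sum. The chromosome 8 enhancer stood at 1.39, 0.721 and 0.873 RPM with both stimuli, 2.3, 2.31 and 1.75 RPM with CpG and 1.71, 2.5 and 2.86 RPM with IFN-γ, against 5.21 RPM unstimulated.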

How the data were processed

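Sample titles and characteristics gave each library's group and replicate number. The named tools are HISAT2 2.1.0, BWA 0.7.10, Trimmomatic 0.38 and FastQC 0.11.5, with mm39 as the build, per the submitters' processing notes. The enhancer caller is not given in the sources used here. Raw counts of tags for 11222 enhancers in 20 libraries were deposited by the authors as 1 table. A further table, called TPM by its name, holds RPM values that the authors had made by dividing each raw count by the tags of the whole library, as its deposited values show: raw counts over them give 1 total per library. Positions are printed as deposited, and whether starts count from 0 or 1 is not stated.

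Raw counts of the whole table were tested with edgeR 4.0.16 in R 4.3.3 (quasi-likelihood F-test, robust, two-sided), with 1 coefficient per group and TMM factors on enhancer tags, which left 10 residual degrees of freedom. The filter (minimum count 5, minimum total 15) left 2792 enhancers. Calls were made at a Benjamini-Hochberg adjusted p under 0.05 over these, and standard errors are the log2 change over the square root of F. The fit was also run on counts simulated from its own means and spread with no filter, so that run checks neither the filter nor the spread. The members, the comparisons and the lists were chosen with earlier results of these data known; the interaction between times, the sums of E1 to E9 and of E10 to E14, and the tags by stimulus were added after the values had been seen. By the naming rule, enhancers past the filter are given in full and the others by range, with those that had 3 tags in both libraries of a group; those most like the window's sum were ranked by Pearson's r. Folds against a group with no tag use a floor of 3 tags over that group. They leave out counting error in the other group, so they are not strict lower bounds. Ratios between groups that both hold tags have exact 95% intervals, printed for some, which cover counting error only. Alternatives were whole-library totals, RLE factors, no filter, a stricter filter (10 and 30), DESeq2 1.42.0, limma 3.58.1 on log2(RPM + 0.5, 0.1 or 2), the compared groups alone and a replicate block. Each library of the compared groups was also left out in turn, so the libraries with CpG alone stayed in all of these fits. For sums, each library of the group and E3 were left out in turn. Checks of markers, copper genes, gene distances and enhancer sequence were not run, since the references at hand are GRCm38.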

Additional observations from a re-analysis of the deposited data

How the results depend on the processing

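No called log2 change reversed under any alternative: of 90 values under other settings 69 kept their call and 21 did not, and of 36 with a library left out 13 kept it and 23 did not. The main counts of members called were 3 at 9 h and 2 at 15 h for both stimuli over IFN-γ, 2 at 3 h and 1 at 9 h for IFN-γ over unstimulated cells, and 1 for both stimuli at 15 h over 3 h. The counts against unstimulated cells are a description. With whole-library totals both stimuli over IFN-γ gave 2 at 9 h, where E1 was lost (2.47, adjusted p = 0.0638, edgeR), and 5 at 15 h, and IFN-γ at 3 h gave 1. Of all tested enhancers that setting called 4.58%, 10.0% and 11.2% in these comparisons, in either direction. Without a filter the counts were 1 for both stimuli over IFN-γ at 9 h, 1 and 0 for IFN-γ over unstimulated cells (3 and 9 h), and 0 for 15 h over 3 h. Of all enhancers 0.606%, 1.25%, 2.81% and 1.01% were then called in these comparisons, in either direction. DESeq2 gave 0 and 1 for both stimuli over IFN-γ at 9 and 15 h, 1 and 0 for IFN-γ, and 0 for 15 h over 3 h. Its shares of all enhancers given an adjusted p were 2.85%, 5.12%, 5.50%, 9.49% and 5.90%. Fitting the compared groups alone gave 1 and 0 for IFN-γ and 3 for 15 h over 3 h, which the stricter filter also put at 3. Of all enhancers the compared groups alone called 9.84%, 19.4% and 11.9%, in either direction. The stricter filter called 27.3% for 15 h over 3 h. For both stimuli over IFN-γ, each of these 2 settings called 4 at 9 h, adding E9, and 3 at 15 h, adding E6. Over all enhancers they called 7.35% and 10.0% (compared groups alone) and 20.1% and 26.4% (stricter filter) in either direction. The stricter filter called 3 for IFN-γ at 3 h, beside 30.6% of all. Limma with 0.5 or 2 added gave 5 for both stimuli over IFN-γ at 15 h, 1 and 0 for IFN-γ and 3 for 15 h over 3 h, and with 0.1 added 5 and, for 15 h over 3 h, 0. The limma fits share the scaling to whole libraries, and the causes were not tested. With a library left out the counts were 0 to 2 at 9 h and 1 to 1 at 15 h for both stimuli over IFN-γ, 1 to 2 at 3 h and 0 to 0 at 9 h for IFN-γ, and 0 to 0 for 15 h over 3 h. With the replicate number as a block every count was as without it, with 2.74 for E7 at 15 h (adjusted p = 0.00327, edgeR). Over 45 pairs of groups, same-numbered libraries deviated together at r of -0.051 to 0.038. Low counts weaken r, so these values do not decide whether the numbers pair the libraries. Over all tested enhancers, whole-library totals put 235 of 280 calls higher for both stimuli over IFN-γ at 15 h, against 144 of 256 with TMM, and 131 of 312 for IFN-γ over unstimulated cells at 3 h, against 212 of 293.

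Scaled to enhancer tags at the mean share, the sums moved by more than 1 SD to 3.48 RPM at 3 h and 6.62 RPM at 9 h with both stimuli, 3.12 RPM at 9 h with CpG, and 3.57 RPM at 3 h and 2.68 RPM at 15 h with IFN-γ. With both stimuli at 15 h the sum fell from 7.43 to 5.96 RPM, within its wide SD of 2.06, and so stood below that at 9 h. Without E3 the sums moved by more than 1 SD to 4.78 RPM at 9 h with both stimuli, 2.46 and 3.18 RPM at 9 and 15 h with CpG, and 1.99 RPM at 15 h with IFN-γ, as fewer enhancers were summed. With both stimuli at 15 h the sum without E3 was 5.87 RPM, within 1 SD. Depth limits all of this: the unstimulated group had 0 to 4 tags at each of the 14 enhancers, so a difference that missed the threshold may be too small to detect here.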
